A study of Mus musculus with 6 samples.

Results

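The RNAs described here are 8 long noncoding RNAs of the nucleus: Rmst, Meg3, Rian, Mirg, Miat, Snhg11, Malat1 and Neat1. They were chosen by name, with earlier results of these data known, among the 32286 genes counted in each library. All 8 had at least 1 UMI (a unique molecular identifier, 1 per captured molecule) in every mouse. Nuclei came from whole cerebella of 12 week old mice. Of these, 3 were SCA1 mice of the Pcp2-ATXN1[82Q] line, in which the Purkinje cell promoter of Pcp2 drives human ATXN1 with an expanded CAG repeat, and 3 were wild-type (WT) mice of strain C57Bl6. The methods describe the controls as littermates and the transgene as backcrossed to the same background, and state that the repeat of the colony had become shorter than the name of the line. Each of the 6 mice gave 1 library. In Purkinje cells (PCs), human ATXN1 had 12, 15 and 19 UMIs in the SCA1 libraries and 0 UMIs in each of the 3 WT mice. Over the other 10 labels compared, reads assigned to it came to 43, 45 and 41 UMIs in the former and 37, 17 and 15 in the latter.

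Long noncoding RNAs of this kind stay largely where they are made, so nuclei hold them in amounts that whole cells dilute. Malat1 collects in nuclear speckles, bodies rich in splicing factors, and Neat1 is the scaffold of paraspeckles, bodies that retain RNA and RNA-binding proteins. Meg3, Rian and Mirg are transcribed from the maternal copy of the imprinted Dlk1-Dio3 region, Rmst is known as a partner of the transcription factor Sox2 in neural progenitors, Miat binds splicing factors in a nuclear domain of neurons, and Snhg11 is a host of small nucleolar RNAs. Cell types were those of the label that the study assigned to each nucleus by reference.

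All 8 genes were placed on GRCm38 (GENCODE vM21). Rmst lies at chr10:92071037-92165170 on the minus strand, Miat at chr5:112213228-112229395 on the minus strand, and Snhg11, which that annotation types as protein coding, at chr2:158375638-158386145 on the plus strand. Malat1 (chr19:5795690-5802672) and Neat1 (chr19:5824708-5845478) share the minus strand and are separated by 22035 bases. Meg3 (chr12:109541001-109571726), Rian (chr12:109603940-109661716) and Mirg (chr12:109729764-109749460) follow one another on the plus strand within 208460 bases, with gaps of 32213 and 68047 bases.

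The annotated spans of 4 members hold microRNA hairpins on the same strand (RefSeq, GRCm38.p6): 2 in Rmst, 1 in Meg3, 3 in Rian and 14 in Mirg. One mature sequence per host is shown, since reads of these hosts, introns included, are what the libraries counted. The microRNAs themselves were not measured. Capitals mark the seed, bases 2 to 8, and the 4 seeds differ from one another.
miR-135a-5p in Rmst: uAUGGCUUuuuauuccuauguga
miR-770-5p in Meg3: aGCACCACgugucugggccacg
miR-370-3p in Rian: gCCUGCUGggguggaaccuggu
miR-410-3p in Mirg: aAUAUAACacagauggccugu
They lie at chr10:92072141-92072163 on the minus strand and at chr12:109563710-109563731, chr12:109618305-109618326 and chr12:109743764-109743784 on the plus strand. The first and the third lie in introns of every transcript that spans them, miR-770-5p in an exon of 1 of 4 such transcripts, and miR-410-3p in an exon of 5 of 5.

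The start of Meg3 is shown because Meg3 and the 2 members that follow it on the same strand had like levels across cell types, as the results below give. The window is chr12:109540746-109541045 on the plus strand (RefSeq, GRCm38.p6), from 250 bases before to 50 bases after the annotated start, with the cAMP response element TGACGTCA in capitals.
Meg3 promoter: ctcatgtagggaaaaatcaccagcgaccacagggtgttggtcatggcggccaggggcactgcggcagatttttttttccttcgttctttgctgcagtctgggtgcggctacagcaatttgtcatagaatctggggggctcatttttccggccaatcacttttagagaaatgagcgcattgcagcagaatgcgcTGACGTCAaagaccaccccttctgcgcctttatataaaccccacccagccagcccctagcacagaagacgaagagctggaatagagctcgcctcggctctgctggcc
The motif, which reads the same on both strands, begins 57 bases before the start and occurs in 588 of 32817 promoter windows of this length (1.79%). None of the 6 other windows of members in the table (Snhg11, Miat, Rian, Mirg, Malat1 and another start of Meg3) held these letters.

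The libraries held 18916647 to 98366627 UMIs in 3354 to 10897 nuclei, 45473 in all, with median UMIs per nucleus of 7100, 4496 and 6302 for SCA1 (mouse 1, 2, 3) and 7253, 2246.5 and 6680.5 for WT. Of 24 labels, 11 had at least 20 nuclei in every mouse and were compared (44698 nuclei). They were granule neurons (37532 nuclei), oligodendrocytes (OL, 1384), Bergmann glia (BG, 1243), velate astrocytes (VA, 1014), PCs (292), the 4 interneuron labels Pvalb-Nefh (1224), Pvalb-Rab3b (458), Pvalb-Cadm1 (289) and Pvalb-Chrm2 (263), the excitatory label Slc17a6.Nrgn (757) and the label Dcn.Nnat (242). The last is named as endothelial tip cells by the reference. In it the endothelial, mural and fibroblast-like markers summed to 822 CPM (UMIs per 1000000 UMIs of a label in a mouse), against 5.30 to 51.8 CPM in the other 10 labels, and it is called by its marker genes here. Both mice numbered 2 stood apart in Malat1 and depth, both mice numbered 1 in mitochondrial transcripts (3.29 and 4.53% of UMIs against 0.630 to 1.98% in the other 4 libraries), and 254 cell barcodes occurred in 2 libraries. Barcode sharing and doublets were not removed here.

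Meg3, an RNA expressed from the maternal allele and abundant in neurons, separated neurons from glia. Its level was highest in Slc17a6.Nrgn, with a lowest, median and highest mouse of 12316, 13204 and 15828 CPM, and it was 10709, 11872 and 13261 CPM in Pvalb-Chrm2. In PCs the same values were 4314, 7862 and 11669 CPM, and in granule neurons 2133, 2273 and 2391 CPM. All 7 neuronal labels were thus above every glial value, since BG, VA and OL ranged from 52.1 to 526 CPM.

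Against granule neurons of the same mouse, Meg3 was higher in 6 labels and lower in 4 (edgeR quasi-likelihood test with Benjamini-Hochberg adjustment at 0.05). For all genes and labels together, 51.1% of tests were called (22.9% higher and 28.1% lower), so a call was common and the sizes carry the description. Meg3 was higher by 2.51 on the log2 scale in Slc17a6.Nrgn (SE 0.142), by 2.12 in PCs (SE 0.164) and by 1.34 in Pvalb-Rab3b (SE 0.0887), and was lower in BG with a log2 fold change of −3.41 (SE 0.385). Over all 8 members, 43 of 80 such tests were called higher and 21 lower, and 16 were not called.

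Rian, a host of small nucleolar RNAs and microRNAs, and Mirg, a host of microRNAs, had the same order of neurons over glia. Mean Rian levels were 836 ± 142 CPM in Slc17a6.Nrgn, 765 ± 57.6 in Pvalb-Chrm2, 526 ± 135 in PCs, 300.2 ± 28.0 in granule neurons and 44.7 ± 31.8 in BG (SD, n = 6 mice). Mirg was at 206 ± 50.8 CPM in Pvalb-Chrm2, 202 ± 27.9 in Slc17a6.Nrgn, 101 ± 26.1 in PCs, 70.0 ± 3.25 in granule neurons and 5.62 ± 4.02 in BG. Both genes were called higher than in granule neurons in the other 6 neuronal labels and lower in the 4 others. Across the 11 labels, mean log2(CPM + 1) of Meg3 and Rian had Pearson r = 0.99, as did Meg3 and Mirg, and Rian and Mirg. These are descriptions over 11 points that share libraries and granule neuron RNA.

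The 3 RNAs did not keep a fixed ratio, a quantity looked at after the levels were seen. The adjusted p-values of the ratio do not cover that choice. Granule neurons held 11.4 to 14.9 Rian UMIs per 100 Meg3 UMIs over the 6 mice (mean 13.3 ± 1.36), PCs 5.87 to 9.72 (mean 6.98 ± 1.43) and the other 5 neuronal labels a mean of 5.57 to 6.70. In each of the 6 comparisons between granule neurons and another neuronal label, the ratio was higher in granule neurons in 6 of 6 mice, by 0.95 to 1.26 on the log2 scale (two-sided exact sign-flip permutation test, p = 0.03125, the smallest that 6 mice allow, adjusted p = 0.0446 over 10 labels). VA went the other way at the same p, with a mean of 17.3 ± 3.09 Rian UMIs per 100 Meg3 UMIs and a ratio above that of granule neurons in 6 of 6 mice (granule neurons minus VA −0.36 on the log2 scale). BG, OL and Dcn.Nnat did not pass (−0.46, −0.23 and −0.80). The ratios of VA, BG and OL rest on levels that, as given below, are not read as expression by glia. Mirg per 100 Meg3 UMIs had a mean of 3.11 ± 0.243 in granule neurons and of 1.34 to 1.80 in the other 6 neuronal labels. Granule neurons were therefore lowest among neurons in all 3 RNAs, and the gap was widest for Meg3.

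The glial levels of these RNAs are set beside those of markers that glia lack. The granule neuron markers (Gabra6, Cbln3, Fat2, Slc17a7 and Etv1) were found in BG with 1.93 to 55.2% of their level in granule neurons of the same mouse. The range was 9.54 to 64.6% in VA, and OL had 6.79 to 60.2%. For Meg3 the range was 2.30 to 20.9% (BG), 7.91 to 24.7% (VA) and 8.97 to 23.5% (OL). Meg3 was highest in BG in both mice numbered 1. Against the 5 markers of the same label and mouse, 1 glial value of Meg3, Rian, Mirg or Snhg11 was above all of them, that of Mirg in VA of WT mouse 3 (22.5%, where the highest marker had 18.3%). Others were below all of them, such as those of Mirg (6.07%) and Snhg11 (5.54%) in VA of SCA1 mouse 3, where the lowest marker had 9.54%. Glial values of the 4 RNAs are given as measured and are not read as expression by glia.

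**Figure D1:**
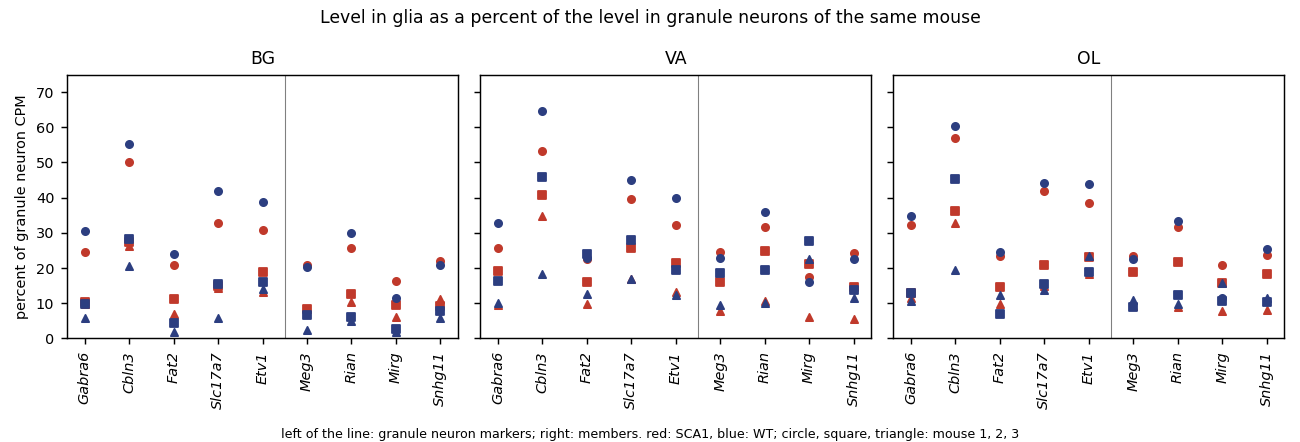
Level in BG, VA and OL as a percent of the level in granule neurons of the same mouse (linear axis), 1 point per mouse, for 5 granule neuron markers and for Meg3, Rian, Mirg and Snhg11. In BG the 4 RNAs lie between 1.77 and 29.9%, inside the range of the markers (1.93 to 55.2%) apart from the lowest mouse of Mirg.

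Snhg11, a small nucleolar RNA host gene, also followed neurons. It was highest in PCs, where the lowest, median and highest mouse had 3978, 7391 and 10033 CPM, and stood at 6450 ± 1275 CPM in Pvalb-Chrm2 and 6089 ± 1159 in Slc17a6.Nrgn (SD, n = 6). Granule neurons had 1297 ± 282 CPM. The log2 fold change against granule neurons was 2.83 in PCs (SE 0.162), 1.99 in Pvalb-Nefh (SE 0.0979) and 1.16 in Pvalb-Rab3b (SE 0.0990), all called higher, and BG, VA, OL and Dcn.Nnat were called lower. Unlike Meg3, its mean level was higher in PCs than in every other label, although the PC values ran into those of Pvalb-Chrm2 and Slc17a6.Nrgn.

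**Figure D2:**
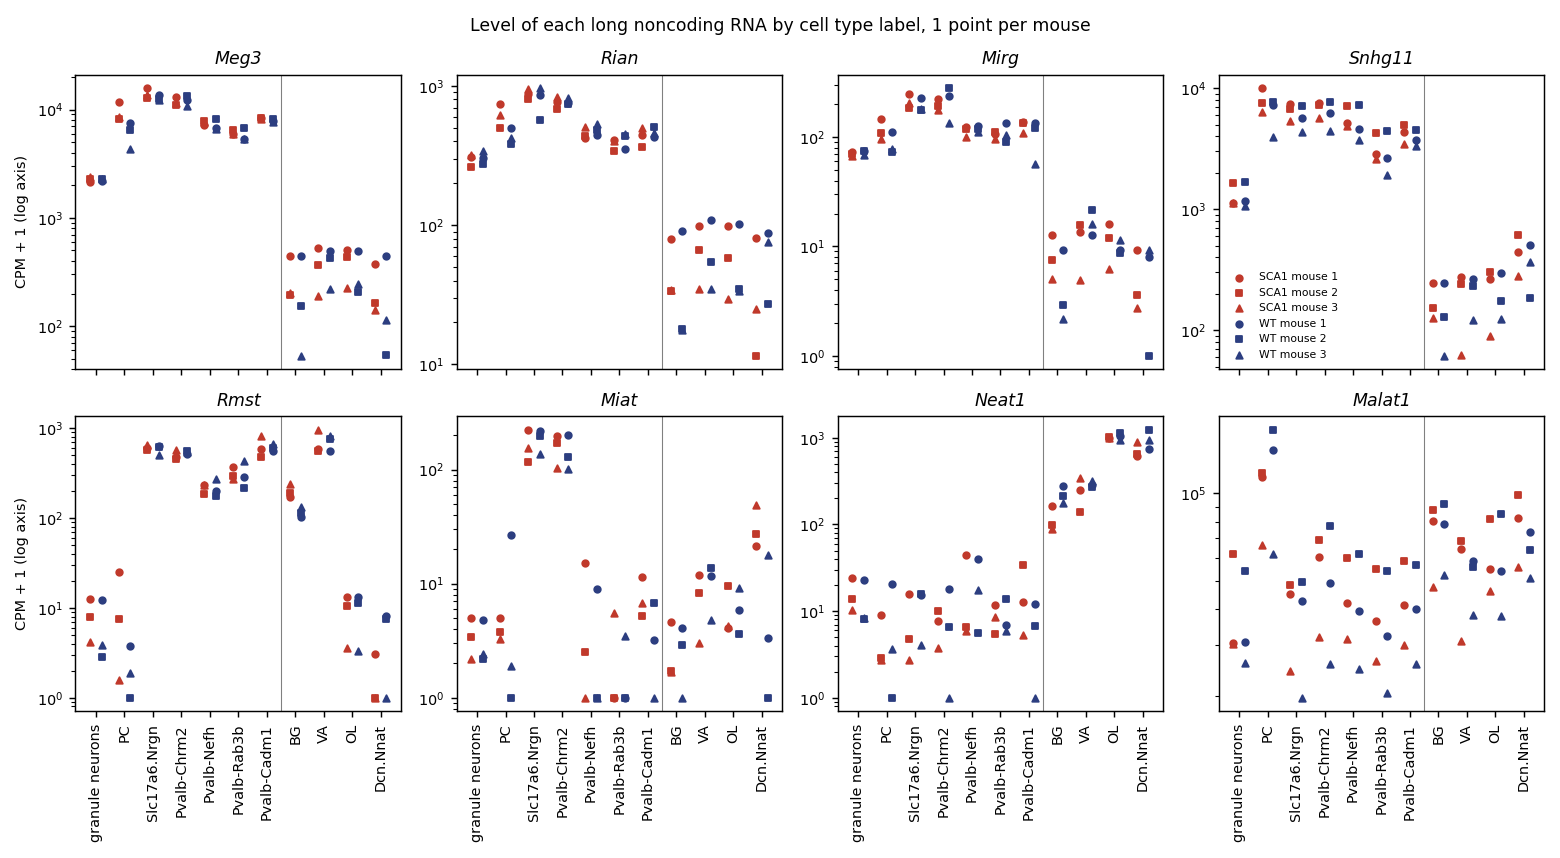
Level of each of the 8 RNAs (CPM + 1, log axis) in 11 labels, 1 point per mouse, red for SCA1 and blue for WT, with neurons left of the grey line. Meg3, Rian, Mirg and Snhg11 are high in all neuronal labels, Rmst is high in VA and interneurons (706 CPM in VA) and Neat1 in OL and Dcn.Nnat (1018 and 846 CPM), while the Malat1 means stay within 2.98-fold.

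Rmst, a partner of Sox2 in neural progenitors, crossed the border between neurons and glia. Its highest mean was in VA, with a lowest, median and highest mouse of 556, 673 and 955 CPM, followed by Pvalb-Cadm1 with 473, 597 and 805 CPM and Slc17a6.Nrgn with 500, 609 and 652 CPM. BG had 102, 150 and 235 CPM. Granule neurons, PCs, OL and Dcn.Nnat stayed between 0 and 24.1 CPM in every mouse, so 7 labels held Rmst and 4 had it near 0. The log2 fold change against granule neurons was 6.91 in VA (SE 0.464), 6.69 in Pvalb-Cadm1 (SE 0.333), 5.15 in Pvalb-Nefh (SE 0.336) and 4.80 in BG (SE 0.399).

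The shares of nuclei with the RNA are given for the astrocytic labels, and the levels for the interneuron labels. At least 1 Rmst UMI was found in 82.9% of VA nuclei (44.3% at a fixed depth of 1000 UMIs) and 47.9% of BG nuclei (13.4%), with median depths of 7411.5 and 8341 UMIs. OL nuclei, at a median of 6453 UMIs, had 3.23% (0.651%), and granule neurons, at 5923 UMIs, 2.34% (0.452%). The share in granule neurons went from 0.381 to 5.13% between mice, and whether these UMIs are stray RNA was not tested. Among interneurons the mean went from 617 ± 112 CPM in Pvalb-Cadm1 and 517 ± 49.5 in Pvalb-Chrm2 to 309 ± 76.9 in Pvalb-Rab3b and 214 ± 35.5 in Pvalb-Nefh. By mean log2 level across labels, the genes most like Rmst were Gm44593 (r = 0.99), D030068K23Rik (r = 0.97) and Grin2b (r = 0.97), the last a subunit of NMDA receptors.

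Miat, a nuclear RNA that holds splicing factors, was high in few labels. It was found in Slc17a6.Nrgn at 116, 175 and 222 CPM (lowest, median and highest mouse) and in Pvalb-Chrm2 at a mean of 149 ± 44.7 CPM (SD, n = 6), with 198 CPM in the highest mouse. The next label was Dcn.Nnat, at 0 to 48.0 CPM, and in the remaining 8 labels no mouse passed 25.9 CPM. Granule neurons stood at 2.34 ± 1.30 CPM.

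Against granule neurons the log2 value of Miat was 6.13 in Slc17a6.Nrgn (SE 0.201) and 5.94 in Pvalb-Chrm2 (SE 0.150), and smaller higher calls were made in Dcn.Nnat (2.74, SE 0.615) and VA (1.59, SE 0.314). A Miat UMI was present in 88.3% of Slc17a6.Nrgn nuclei, 51.9% of Pvalb-Chrm2 nuclei and 1.31% of granule neurons. At 1000 UMIs per nucleus these shares were 15.3, 8.56 and 0.215%. The median depths were 20677, 15264 and 5923 UMIs, so the order held at equal depth. Pvalb-Chrm2 thereby differed from the other 3 interneuron labels, whose means were 1.16 to 4.72 CPM.

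Neat1, the paraspeckle scaffold, was an RNA of glia and of Dcn.Nnat. OL had 938, 1014 and 1122 CPM in the lowest, median and highest mouse, a narrow range, and Dcn.Nnat 616, 821 and 1238 CPM. VA followed with 267 ± 70.6 CPM and BG with 168 ± 69.8 CPM (SD, n = 6). No neuronal label had a mean above 18.9 CPM, and PCs had the lowest, at 5.60 ± 7.29 CPM.

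Neat1 had a log2 fold change against granule neurons of 6.28 in OL (SE 0.282), 5.75 in Dcn.Nnat (SE 0.323), 4.31 in VA (SE 0.303) and 3.66 in BG (SE 0.282). It was called lower in PCs (−0.99, SE 0.365), Pvalb-Rab3b, Pvalb-Chrm2 and Slc17a6.Nrgn. In PCs the call was kept without WT mouse 1 (−1.65) but lost without any other single mouse, with values of −0.80 without SCA1 mouse 2, −0.84 without SCA1 mouse 3, −0.90 without SCA1 mouse 1 or WT mouse 2 and −0.97 without WT mouse 3. It was also lost in Pvalb-Rab3b without SCA1 mouse 1 (−0.98) or WT mouse 1 (−0.78) and in Pvalb-Chrm2 without SCA1 mouse 1 (−0.85). A Neat1 UMI was present in 89.1% of OL nuclei and 54.0% of BG nuclei, against 6.43% of granule neurons and 11.3% of the far deeper PC nuclei (median 36466.5 UMIs), and at 1000 UMIs in 57.8, 14.3, 1.21 and 1.20%. Neat1 ran against Meg3 across the 11 labels (r = −0.94, a description). The genes most like it were Snx33, Agmo and Hdgfl2 (each r = 0.99).

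Malat1, the speckle RNA, was found in 100% of nuclei of every label and varied least between labels. Its mean was highest in PCs, where it took 6.18 to 16.6% of all UMIs (mean 111263 ± 41003 CPM, n = 6 mice), and lowest in Pvalb-Rab3b (37358 ± 14306 CPM), a 2.98-fold span. For the other 7 members the span between the highest and the lowest mean was 18.7-fold (Rian) to 271-fold (Rmst). BG followed at 73067 ± 18693 CPM and granule neurons had 38839 ± 15045.

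PCs held more Malat1 than granule neurons of the same mouse in all 6 mice, at 191 to 462% of the granule neuron level. The log2 fold change of Malat1 against granule neurons was 1.90 in PCs (SE 0.207), 0.98 in BG (SE 0.172), 0.56 in OL (SE 0.150, adjusted p = 0.0104, edgeR) and 0.42 in VA (SE 0.147, adjusted p = 0.0319, edgeR), and the 6 other labels were not called. The call in OL was lost without SCA1 mouse 1 (0.50), and that in VA without SCA1 mouse 1 (0.29), WT mouse 1 (0.33) or WT mouse 3 (0.40). PCs exceeded BG in 6 of 6 mice. The genes most like Malat1 across labels were Ly96 (r = 0.95), Mlph (r = 0.95) and Arap1 (r = 0.92), all highest in PCs.

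**Figure D3:**
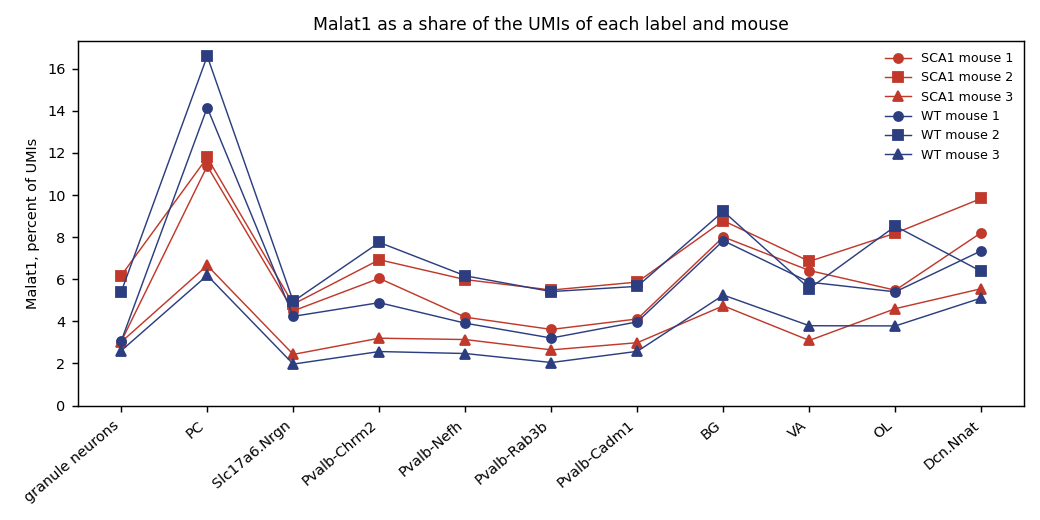
Malat1 as a percent of the UMIs of each label (linear axis from 0), 1 line per mouse, red for SCA1 and blue for WT. Every line peaks at PCs, and in granule neurons both mice numbered 2 lie highest, at 6.17 and 5.40%, above the other 4 at 2.60 to 3.06%.

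The spread of Malat1 between mice went with mouse number 2 in both genotypes. It made up 6.48 and 6.18% of all UMIs in SCA1 mouse 2 and WT mouse 2, and 2.89 to 3.94% in the other 4. These 2 libraries also had the lowest median depths, 4496 and 2246.5 UMIs. When granule nuclei of each mouse were split by depth into 4 groups of equal size, the median share in the 4 was 5.59 to 6.55% in SCA1 mouse 2 and 4.75 to 5.63% in WT mouse 2, and 2.28 to 3.15% in every such group of the other 4 mice. The groups were cut within each library and were not matched in depth between libraries, and the part of depth was not tested.

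The order of labels was tested between neighbours, by two-sided exact sign-flip permutation of the log2(CPM + 1) differences of the 6 mice. In this exact permutation test 26 of 80 neighbour pairs had the same sign in all 6 mice and reached p = 0.03125, the smallest that the design allows, but after adjustment over all pairs (0.0962) none passed 0.05. With 80 pairs and that smallest p, the adjustment could pass a pair only if most pairs reached it. The order itself came from the same values. The lack of calls therefore decides nothing about adjacent ranks, which are given as an order of means. Among the 26 were Malat1 in PCs over BG (0.56), Meg3 in Pvalb-Rab3b over granule neurons (1.40), Rmst in BG over OL (4.25), Neat1 in VA over BG (0.72) and Miat in Pvalb-Chrm2 over Dcn.Nnat (3.73), as mean log2 differences. The 2 highest labels of Meg3, Rian, Mirg, Miat, Rmst and Neat1 were not among them, nor were PCs and Pvalb-Chrm2 for Snhg11.

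The effect of the transgene was then asked label by label, SCA1 against WT. Library numbers fell into a lower range (SCA1 mouse 1 and WT mouse 1) and a higher range (the other 4), and this range was a term of the fit. Of 88 combinations of member and label, 73 had enough counts to be tested, and 0 were called at an adjusted p of 0.05 (edgeR). Over all genes of the 11 labels 0.00173% were called, a share at which 0 of 73 is no result about the members. At an unadjusted p under 0.05 there were 2 members (background 1.92%), and DESeq2 also called 0. The log2 fold changes ranged from −0.99 to 0.71. In 5 of the 73 the 3 SCA1 mice lay wholly above or below the 3 WT mice (background 5.5%): Meg3 and Rian in PCs, Rmst in BG and Meg3 in Pvalb-Cadm1 above, and Neat1 in BG below. Overlap was judged on CPM, without the TMM scaling factors that the fits use. Divided by those factors, Rian in PCs and Meg3 in Pvalb-Cadm1 overlap.

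**Figure D4:**
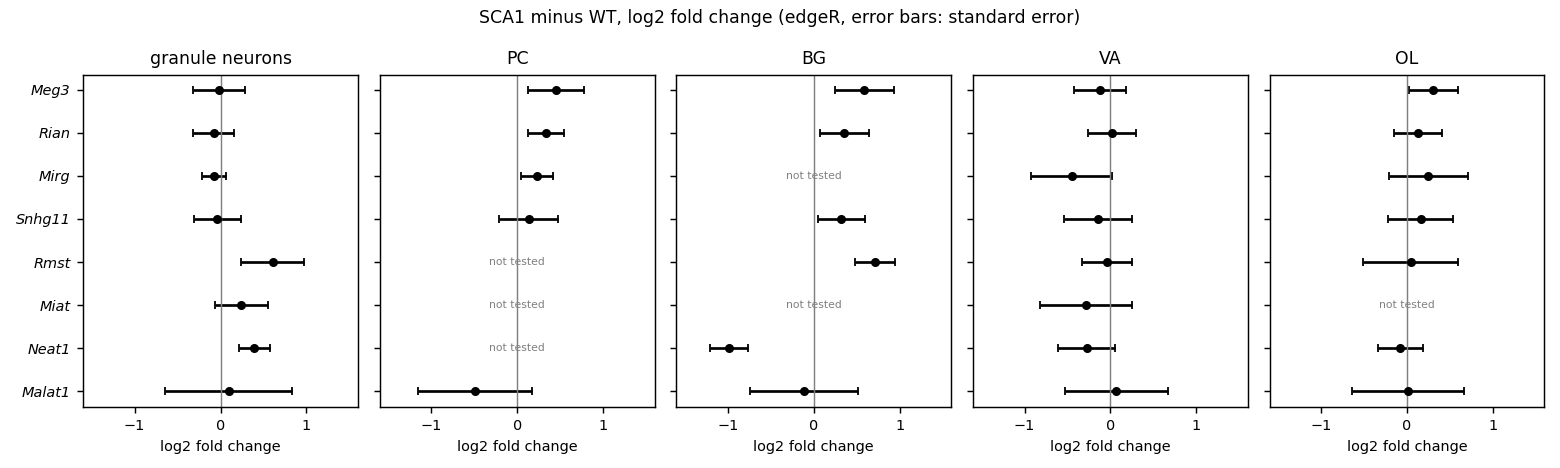
Log2 fold change, SCA1 minus WT, of each RNA in granule neurons, PCs, BG, VA and OL (points: edgeR estimates from 3 mice per genotype; bars: standard error). Neat1 (−0.99) and Rmst (0.71) in BG lie farthest from 0, followed by Rmst in granule neurons (0.61) and Meg3 in BG (0.59), and members with too few counts are written as not tested.

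In PCs, where the transgene is active, 5 members could be tested, while Rmst, Miat and Neat1 were too low. Meg3 had 11669, 8206 and 8504 CPM in the SCA1 animals (numbers 1, 2 and 3, an order kept from here on) and 7517, 6492 and 4314 CPM in the WT animals. Every SCA1 value was above every WT value, as for 12% of all genes tested in PCs. The fitted SCA1 to WT log2 change was 0.46 (SE 0.324, adjusted p = 0.961 in edgeR), and it lay between 0.33 and 0.63 under the alternatives. In unscaled CPM, without the TMM factors of the fit, the log2 difference was 0.63 within the lower range of library numbers. Within the higher range it was 0.63 as well. The fit with library size as the only scaling also gave 0.63.

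Rian in PCs was at 745, 495 and 619 CPM in SCA1 and 495, 381 and 419 CPM in WT, again without overlap, since SCA1 mouse 2 (495.1) lay just above WT mouse 1 (494.9). The TMM factors of these 2 mice in PCs were 1.08 and 1.02. Divided by them, SCA1 mouse 2 falls below WT mouse 1, so the separation of Rian holds for unscaled CPM only. The fit gave 0.34 on the log2 scale (SE 0.213, adjusted p = 0.936 in edgeR), 0.22 without SCA1 mouse 3 and 0.52 with library size as the only scaling, the lowest and the highest of the alternatives on sums per mouse. Mirg overlapped at 144, 107 and 94.4 CPM against 110, 72.3 and 77.2 CPM (0.23, SE 0.190), as did Snhg11 (0.14, SE 0.343). Malat1 overlapped as well, with 113806, 117840 and 66546 CPM in SCA1 and 141560, 165995 and 61831 CPM in WT, a log2 value of −0.49 (SE 0.666, adjusted p = 0.999 in edgeR) that was −0.039 without WT mouse 2 and −0.78 without WT mouse 3. Beside these values, the 5 Purkinje markers summed to 12028, 11060 and 14310 CPM in SCA1 PCs and 15048, 16066 and 18638 CPM in WT PCs, without overlap, and the part of that difference in the results for Meg3 and Rian was not tested.

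Among SCA1 PCs, 31 nuclei had a UMI of human ATXN1 and 115 had none. Meg3 was higher in the former in 3 of 3 mice, at 15326, 10964 and 10237 CPM against 10934, 6964 and 7363 CPM, a log2 difference of 0.40 (SE 0.133) that was not called (adjusted p = 0.174, edgeR). The log2 differences of Mirg (0.41), Rian (0.28), Snhg11 (0.10) and Malat1 (−0.31) were not called either, while 1.47% of all genes were. Nuclei with a human ATXN1 UMI were deeper, at a median of 48164 UMIs against 32295, and the part of depth was not tested.

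BG, the glia that ensheathe PC dendrites, held both members with an unadjusted p under 0.05 (background in BG 1.71%). Neat1 had 162, 98.7 and 88.5 CPM in the SCA1 animals and 275, 210 and 174 CPM in the WT animals. All SCA1 values were below all WT values, as for 1.98% of genes in BG. Its log2 value was −0.99 (SE 0.218, adjusted p = 1.00, edgeR). In CPM without the TMM factors it was −0.76 and −1.04 within the library ranges. Blocking on the replicate number gave −0.98 with an adjusted p of 0.0397 (edgeR), the one setting on sums per mouse in which Neat1 was called. That block takes same-numbered mice as pairs. In BG the deviations of the mice numbered 2 correlated at only r = 0.041, below the 0.1 asked of a pair.

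Rmst in BG lay on the other side, at 168, 186 and 235 CPM in SCA1 and 102, 112 and 133 CPM in WT. No value overlapped, as for 2.96% of genes with SCA1 above in BG. Rmst was not an unselected gene, since the study reports it as increased in BG from these same libraries. That share is therefore no independent support. On the log2 scale the change of Rmst was 0.71 (SE 0.235, adjusted p = 1.00, edgeR, and adjusted p = 0.232 with the replicate block). In CPM without the TMM factors it was 0.72 and 0.79 within the library ranges. Meg3 in BG was at 445, 192 and 199 CPM against 444, 151 and 52.1 CPM (0.59, SE 0.347) and overlapped, and the log2 value was 0.19 without WT mouse 3, 0.91 to 0.93 without SCA1 mouse 1, WT mouse 1 or WT mouse 2, and 0.36 with no term for the library range.

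**Figure D5:**
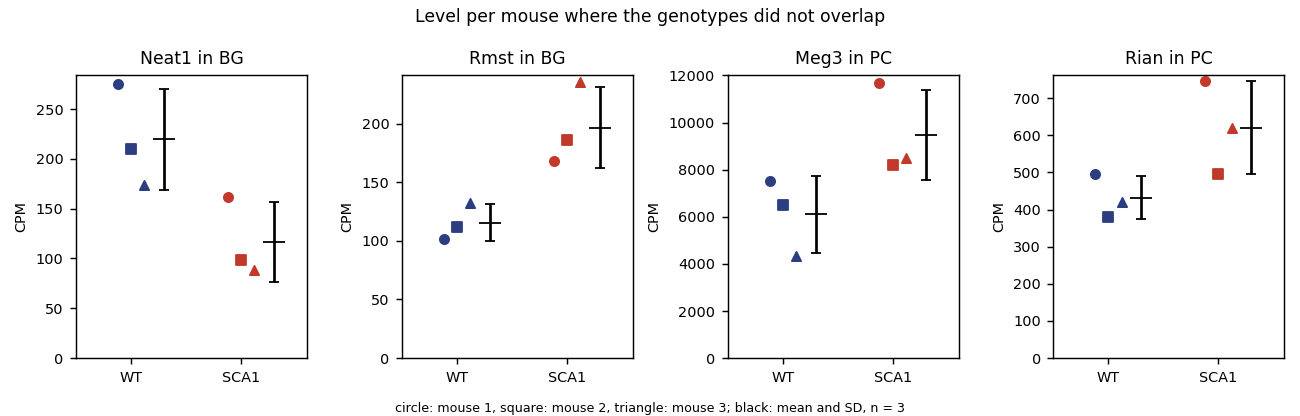
CPM (linear axis from 0) of Neat1 and Rmst in BG and of Meg3 and Rian in PCs, 1 point per mouse, with mean and SD of 3 mice per genotype in black. SCA1 mice lie below WT for Neat1 (116 against 220 CPM) and above WT for Rmst (196 against 115 CPM), Meg3 and Rian. Values are not divided by the TMM factors of the fits, with which Rian overlaps.

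Neat1 and Rmst are also high in other glia, so their markers in BG are given beside these results. Rmst is also high in the interneuron labels, Slc17a6.Nrgn and a choroid plexus label that was not compared. Markers of these in BG are not given here. The 5 OL markers, from the label richest in Neat1, summed in BG to 862, 363 and 148 CPM in SCA1 and 986, 140 and 129 CPM in WT. The 5 VA markers, from the label richest in Rmst, summed to 679, 554 and 303 against 547, 335 and 308 CPM. The 7 endothelial, mural and fibroblast-like markers summed to 70.0, 73.8 and 49.3 against 50.9, 26.5 and 40.3 CPM and the 5 microglial markers to 35.3, 94.3 and 64.8 against 45.0, 51.1 and 36.7 CPM. All lists given here overlapped between genotypes, and all of their genes had a UMI in BG. Their part in the results for Neat1 and Rmst was not tested.

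Neither difference was shown to be particular to BG. The interaction test, which compares the change in a label with that in granule neurons, called 0 of 32 member tests in PCs, BG, VA and OL and 0% of all genes (edgeR). At an unadjusted p under 0.05 there were 2 members, Neat1 in BG and Rmst in PCs, where Rmst is near 0 (2.07% of all genes in the 4 labels together). For Neat1 in BG the log2 difference of the changes was −1.33 (SE 0.316, adjusted p = 1.00, edgeR), and for Rmst in BG it was 0.25 (SE 0.767). Granule neurons had little of both RNAs (Neat1 13.6 ± 7.26 CPM, Rmst 6.28 ± 4.32 CPM). As it compares with granule neurons only, the test could not set BG apart from other glia. In OL, where Neat1 is highest, it stood at 981, 1028 and 1000 CPM in SCA1 and 1038, 1122 and 938 CPM in WT, a log2 fold change of −0.08 (SE 0.257). Mean Neat1 was also lower in SCA1 in VA (243 ± 100 against 292 ± 24.3 CPM, SD) and in Dcn.Nnat (719 ± 153 against 974 ± 247 CPM). Neither was called. In VA, where Rmst is highest, it stood at 583, 556 and 955 CPM against 558, 763 and 821 CPM, a log2 fold change of −0.04 (SE 0.291).

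In granule neurons, all 8 members were tested, none was called (0.00566% of all genes were) and none separated the genotypes (2.84% of all genes did). Malat1 was at 30424, 61743 and 30176 CPM in SCA1 and 30627, 54013 and 26048 CPM in WT (0.09, SE 0.740), values in which mouse 2 of each genotype stood out. In VA 8 and in OL 7 members were tested, with 0 called (0 and 0.00917% of all genes were) and overlapping genotypes throughout (4.88 and 3.96% of all genes did not overlap). In the 6 other labels, 39 combinations were tested and 1, Meg3 in Pvalb-Cadm1, did not overlap (8272, 8383 and 8241 against 7852, 8192 and 7614 CPM), as for 3.05% of genes with SCA1 above in that label. The TMM factors there were 1.06 for SCA1 mouse 1 and 0.92 for WT mouse 3. Divided by them, SCA1 mouse 1 falls below WT mouse 3. Over all nuclei of a mouse, 0 of 8 members were called (0.0051% of all genes were), with log2 fold changes from −0.04 to 0.23.

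The lists of partner and neighbour genes were read in the same tests. In SCA1 against WT, 0 genes of the 9 lists were called in granule neurons, PCs, BG, VA or OL. This held for edgeR, with or without the replicate block, and for DESeq2. Of all genes, edgeR without the block called 0% in PCs, BG and VA, 0.00566% in granule neurons and 0.00917% in OL. At those shares 0 is no result about the lists. At an unadjusted p under 0.05 edgeR gave 7 of 86 in PCs and 2 of 93 in OL, beside 6.65 and 0.807% of all genes. The replicate block gave 16 of 86 in PCs, and the share of all genes for it is not given here. Of the 7 in PCs without the block, 5 were among the 12 tested genes of the list of other long noncoding RNAs. The log2 fold changes of all 12 ran from −1.96 to 1.04. That list names Bc1, which the study reports as lowered in PCs, and the lists were chosen with earlier results known. Whether the list stands apart from the others was not tested. Against granule neurons, the shares of all genes called higher and lower were 26 and 35.9% in PCs, 26.9 and 31.7% in BG, 26.2 and 28.2% in VA and 22.6 and 30.6% in OL. Of the Dlk1-Dio3 list, 3 genes were tested in PCs, with a median log2 fold change of 0.21 beside 0.02 for all genes. B830012L14Rik, a noncoding RNA of that region, was at 136 ± 14.2 CPM in SCA1 PCs and 88.5 ± 13.98 in WT PCs (0.43, SE 0.218, adjusted p = 0.815, edgeR), and across labels it was the gene most like Mirg (r = 0.99). Rtl1, a coding gene of the region, had 18.4 ± 4.68 and 15.2 ± 7.32 CPM.

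Of 27 other imprinted genes in the files, 19 were tested in PCs (median log2 fold change 0.21) and 19 in BG (0.19). Against granule neurons 5 were higher, 12 lower and 7 not called in BG, and 5, 12 and 6 in PCs. Snhg14, a host of small nucleolar RNAs, was lower in BG (−2.89, SE 0.170) and higher in PCs (0.70, SE 0.106), as was Ube3a, a ubiquitin ligase (−1.56, SE 0.187 in BG and 0.79, SE 0.124 in PCs). All 11 paraspeckle proteins were tested in BG beside Neat1, and their median SCA1 against WT log2 fold change was −0.01 (all genes 0.00). In BG against granule neurons 6 of the 11 were lower and 0 higher. Cpsf6, a factor of RNA 3′ end processing, had 135 ± 17.04 CPM in BG and 196 ± 29.9 in granule neurons, so it was not higher in the label with more Neat1.

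Of 13 speckle proteins, 1 was higher and 6 lower in BG than in granule neurons, and 3 were higher and 3 lower in PCs. Son, a speckle scaffold, was the one higher in BG (1.02, SE 0.0912), and Srrm2, another scaffold, was lower there (−0.80, SE 0.0978) and higher in PCs (0.44, SE 0.0993). Of the 4 genes of the Sox2 list tested, 4 were higher in BG and in VA and 4 lower in PCs. Sox9, a glial transcription factor, had 103 ± 22.8 CPM in BG and 112 ± 17.9 in VA against 13.6 ± 9.00 in granule neurons. Hnrnpa2b1, an RNA-binding partner of Rmst, was 606 ± 166 CPM in BG and 305 ± 66.1 in granule neurons.

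Of 6 splicing regulators linked to Miat, 1 was higher and 3 lower in PCs than in granule neurons. Miat itself was low in PCs (5.97 ± 9.87 CPM) and not called there. The list was not compared with granule neurons in Slc17a6.Nrgn or Pvalb-Chrm2, where Miat was high. Celf2, an RNA-binding protein, was higher in PCs (1.81, SE 0.112) and its relative Celf4 lower (−3.64, SE 0.266). Of 13 other small nucleolar RNA host genes in the files, 12 were tested in PCs, where Snhg11 was highest, and 2 were higher, 2 lower and 8 not called. Gas5 did not pass the test in PCs, with 52.1 ± 28.2 CPM against 83.3 ± 37.9 in granule neurons, and Snhg20 was higher (1.23, SE 0.222). Of 16 other long noncoding RNAs of brain tested, 8 were higher and 5 lower in BG than in granule neurons. Mir124a-1hg, a host of a neuronal microRNA, had 478 ± 190 CPM in PCs and 49.1 ± 34.6 in BG against 409 ± 114 in granule neurons, and Dleu2 had 456 ± 63.7 CPM in OL and 12.3 ± 10.8 in PCs against 366 ± 66.0. Between genotypes in PCs, Mir124a-1hg had 384 ± 65.7 CPM in SCA1 and 572 ± 244 in WT (−0.75, SE 0.292, adjusted p = 0.622, edgeR). Dleu2 had 6.86 ± 3.63 and 17.8 ± 13.8 CPM (−1.58, SE 0.414, adjusted p = 0.293, edgeR), and both genes overlapped between genotypes. The 13 mitochondrial transcripts, a sign of RNA from outside the nucleus, included 0 called between any of PCs, BG, VA and OL and granule neurons (edgeR, with 2 at an unadjusted p under 0.05 in BG and 1 in VA). The mt-Atp6 level was 3405 ± 2799 CPM in BG and 4099 ± 3325 in granule neurons, and the mt-Co3 level 3345 ± 2614 and 4003 ± 3028 CPM.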

How the data were processed

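Single nuclei of the cerebella of 6 mice (3 SCA1, 3 WT) were sequenced on the 10x platform. The deposited tables hold UMI counts per gene and nucleus, unnormalized, as the authors made them. The submitters' processing notes name Cell Ranger (4.0.0, 5.0.1 and 6.0.1), Seurat 4.0.4 and R 4.1.0 with the build mm10. Per the methods, introns were counted, the human ATXN1 locus was added to the reference, debris was removed by DIEM with a minimum of 3000 UMIs in the first run and 1000 in the others, and nuclei were named by SingleR. Counting introns includes RNA still being transcribed, and reads of small RNAs inside a host cannot be told apart from it.

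The counts were summed per mouse and SingleR label in pandas 2.3.3 under Python 3.11.15, with scipy 1.17.1, numpy 2.4.6 and matplotlib 3.10.9. Labels with at least 20 nuclei in every mouse were compared. The quasi-likelihood test of edgeR 4.0.16 (R 4.3.3) was run on all genes that passed filterByExpr (minimum count 10, minimum total 15) with TMM factors (0.87 to 1.15 over labels), and p-values were adjusted by Benjamini-Hochberg over all genes of a label. SCA1 was compared with WT with library range as a term, which was inferred from library numbers and taken as a batch. Labels were compared with granule neurons within mouse. Each mouse is 1 replicate. The methods name limma-trend on a single-cell matrix normalized by scran. They mention no sums per mouse, and do not name the replicates outright.

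The alternatives were DESeq2 1.42.0, limma 3.58.1 on sums, limma on single nuclei after scran 1.30.0 and scuttle 1.12.0, other scalings and filters, fits without batch, a block on the replicate number, and each mouse left out. The scripts were tested on simulated counts. Levels are CPM, with a pseudocount of 1 where logged. Shares at 1000 UMIs are hypergeometric and leave out shallower nuclei. The 95% intervals are exact Poisson and cover counting error only. No doublet caller was run.

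Replicate numbers in the labels were checked as pairs. Over all nuclei, deviations from the group means correlated within numbers 1, 2 and 3 at r = 0.83, 0.31 and 0.76, and the numbers were taken as pairs, although nothing in the sources says what a number marks. Within single labels the value of number 2 was lower, at 0.067 in PCs, 0.041 in BG and 0.088 in OL. These 3 values are below the 0.1 asked of a pair, so the replicate block is not well founded in those labels.

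The members and the lists were chosen with earlier results of these data known. All 8 members were named. From each other list, the named genes were any called gene and the 2 with the highest mean CPM in granule neurons. For each member, the 3 genes with the highest Pearson r to it over the 11 labels were found among 13493 genes with at least 10 CPM in a label.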

Additional observations from a re-analysis of the deposited data

Results flagged for a closer look

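Mirg was high in a label that was not compared. In Neuron.Gad1Gad2.Lgi2, an inhibitory label with 240 nuclei that was left out because WT mouse 3 had 12 of them, the pooled level of Mirg was 225.5 CPM (1267 UMIs, exact Poisson 95% interval 213 to 238). The highest mean among the compared labels was 206 ± 50.8 CPM (SD, n = 6), in Pvalb-Chrm2, where the highest mouse had 280 CPM. A level pooled over mice and a mean that weights mice equally are unlike quantities. The difference was not tested, and the interval covers counting error only, not the spread between mice.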

How the results depend on the processing

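The count of member tests called in SCA1 against WT was 0, and it was 1 with no filter on low counts (Rmst in PCs), 1 with the replicate block (Neat1 in BG, −0.98, adjusted p = 0.0397, edgeR) and 4 with nuclei as replicates by limma (Meg3 and Malat1 in PCs, Rmst and Neat1 in BG), a test that counts nuclei of 1 mouse as independent. It stayed at 0 under the other alternatives and without any single mouse. Over all genes, calls in PCs numbered 0 in edgeR, 172 with the replicate block, 66 with DESeq2 and 223 with no filter, and in BG 0, 8, 2 and 15. The share of all genes called with nuclei as replicates is not given here. The 4 member calls of that test are therefore not read as a result about the members. With library size only, the median log2 fold change of all genes in PCs moved from 0.02 to 0.20. The replicate block changed no other call of a member. Against granule neurons 64 tests were called, 60 to 72 under the alternatives and 60 to 64 without single mice. Sign changed for values that were near 0 or under another unit. In SCA1 against WT, Neat1 in OL was 0.067 with nuclei as replicates. Against granule neurons, Rmst in PCs was 0.29 with only nuclei whose label was the most frequent of their cluster, and Malat1 in Pvalb-Cadm1 was −0.057 with no filter. With UMIs per nucleus, which follows depth, Rmst (1.75) and Neat1 (0.96) in PCs, Malat1 in Pvalb-Rab3b (0.54) and Slc17a6.Nrgn (1.78), and Neat1 in Pvalb-Cadm1 (0.43), Pvalb-Chrm2 (0.40) and Slc17a6.Nrgn (0.69) were positive. Leaving out 1 mouse gave SCA1 against WT ranges of −0.33 to 0.12 (Malat1 in BG), −0.18 to 0.34 (Malat1 in granule neurons), −0.32 to 0.19 (Rmst in VA) and −0.053 to 0.43 (Snhg11 in PCs). Against granule neurons the ranges were −0.013 to 0.11 (Malat1 in Pvalb-Cadm1), −0.21 to 0.035 (Malat1 in Slc17a6.Nrgn), −0.24 to 0.82 (Miat in Pvalb-Nefh) and −1.10 to 0.31 (Rmst in PCs). The causes were not tested. The setting on the most frequent label of a cluster could be run in only 7 labels for genotype and 6 against granule neurons, since a mouse had no such nuclei in the others. Rmst, Miat and Neat1 had too few counts in PCs for the genotype test, although PCs were the deepest label per nucleus.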

Other observations

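Labels with too few nuclei for a comparison carried the members in further cell types, given as levels pooled over mice with exact Poisson 95% intervals for counting error. The inhibitory label Neuron.Gad1Gad2.Lgi2 (240 nuclei) held Miat at 91.9 CPM (84.1 to 100.1) and Rmst at 198 CPM (187 to 210). Neuron.Slc17a6.Sln (104 nuclei), another excitatory label, had Miat at 1.74 CPM (0.211 to 6.29), against a mean of 173 CPM in Slc17a6.Nrgn, and Meg3 at 5724 CPM (5586 to 5864).

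Outside neurons, Rmst was at 547 CPM (501 to 597) in the choroid plexus label Choroid_Plexus.Ttr (83 nuclei), and at 4.85 CPM (1.00 to 14.2) in microglia (125 nuclei), where 3 UMIs were counted. Neat1 was at 244 CPM (214 to 278) in that choroid plexus label, 234 CPM (198 to 276) in microglia and 262 CPM (230.0 to 297) in the endothelial label Endothelial_Stalk.Flt1.Lrg1 (89 nuclei). All 3 values were below the mean in OL (1018 CPM), while a further oligodendrocyte label of only 13 nuclei, Oligodendrocyte.Trf.Klk6, had 1377 CPM (1175 to 1603). Malat1 in microglia, at 29111 CPM (28687 to 29539), was below the lowest mean of the compared labels (37358 CPM in Pvalb-Rab3b). None of these differences was tested.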
